A study of Homo sapiens with 18 samples.

Results

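ERK signalling restrains itself through genes that it switches on, and 10 of those genes are described here across all 18 libraries: the phosphatases DUSP1, DUSP4, DUSP5 and DUSP6, the Sprouty genes SPRY2 and SPRY4, the Sprouty-related SPRED1 and SPRED2, PHLDA1, and the immediate-early transcription factor EGR1. They were listed by name, and the list was chosen with earlier results of these data known. All 10 were among the 19741 named genes of the table and among the 13065 genes tested. In this pathway growth factors bind receptor tyrosine kinases, which load RAS with GTP and start a chain of kinases (RAF, MEK and ERK). Active ERK drives transcription through ETS and AP-1 factors. The products of that transcription act back on the chain at several levels: dual-specificity phosphatases take the phosphates off ERK and related kinases, Sprouty and SPRED proteins act between the receptor and RAF, and the early genes carry the signal to later targets.

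On GRCh38, in the GENCODE annotation, DUSP1 lies at chr5:172768090-172771195, SPRY4 at chr5:142310427-142326455, EGR1 at chr5:138465490-138469315, DUSP6 at chr12:89347232-89353271 and PHLDA1 at chr12:76025447-76033932. DUSP4 lies at chr8:29333064-29350668, DUSP5 at chr10:110497838-110511544, SPRY2 at chr13:80335976-80340951, SPRED1 at chr15:38252326-38357249 and SPRED2 at chr2:65310851-65432637. All 10 are protein-coding genes, and the values count spliced transcripts of the whole gene. Exons of DUSP6 overlap those of 1 annotated antisense gene and exons of PHLDA1 those of 2. The library kit does not mark strand, so reads of these partners cannot be told apart. DUSP5 has annotated pseudogene copies, DUSP5P1 and DUSP5P2, that were not analysed here.

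The cells were NCI-H211, a long-established line of small cell lung cancer in which POU2F3 is active, a transcription factor of tuft cells (chemosensory cells of epithelia). All cells carried Cas9. There were 6 groups of 3 libraries. L191A cells expressed a POU2F3 cDNA with the mutation L191A, WT cells expressed the wild-type cDNA, and empty-vector cells carried no cDNA. Both cDNAs were resistant to the guide, and each of the 3 lines received sgPOU2F3, which targets the POU2F3 of the genome, or sgRosa, the negative control guide. RNA was taken 5 days after the lentiviral infection. The 3 libraries of a group were separate infections of 1 stable line, so p-values measure the spread between infections and not between independently derived lines. Every column of the table summed to 1000000 TPM (transcripts counted per length and scaled to a fixed total), so the depth of a library is unknown and no counting interval can be given.

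The promoters of 4 of these genes are shown because the genes had different patterns across the 6 groups. They come from RefSeq (GRCh38.p14), run 5′ to 3′ on the strand of the gene and cover 250 bases before to 50 bases after the annotated start. Capitals mark matches to 3 motifs searched on both strands: the CArG box that serum response factor binds, the ETS letters CCGGAA, and the cyclic AMP response element TGACGTCA.
EGR1 (chr5:138465229-138465528, plus strand): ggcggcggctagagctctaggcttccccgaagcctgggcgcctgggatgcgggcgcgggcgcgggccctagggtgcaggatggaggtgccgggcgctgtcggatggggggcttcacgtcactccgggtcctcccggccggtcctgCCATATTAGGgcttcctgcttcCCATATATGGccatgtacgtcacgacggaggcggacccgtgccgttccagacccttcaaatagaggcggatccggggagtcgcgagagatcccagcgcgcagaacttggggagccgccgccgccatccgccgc
DUSP1 (chr5:172771146-172771445, minus strand): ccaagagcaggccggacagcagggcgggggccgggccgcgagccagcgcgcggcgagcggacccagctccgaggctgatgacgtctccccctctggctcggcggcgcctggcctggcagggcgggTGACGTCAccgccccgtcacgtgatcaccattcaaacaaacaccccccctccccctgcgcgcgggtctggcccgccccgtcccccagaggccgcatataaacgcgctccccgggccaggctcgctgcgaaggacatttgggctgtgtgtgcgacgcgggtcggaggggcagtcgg
PHLDA1 (chr12:76031727-76032026, minus strand): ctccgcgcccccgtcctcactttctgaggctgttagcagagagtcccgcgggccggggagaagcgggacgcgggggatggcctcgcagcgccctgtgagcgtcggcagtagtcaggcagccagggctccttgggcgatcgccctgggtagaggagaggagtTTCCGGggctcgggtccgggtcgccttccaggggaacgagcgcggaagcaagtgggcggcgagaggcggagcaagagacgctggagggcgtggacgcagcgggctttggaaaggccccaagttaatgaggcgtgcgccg
DUSP6 (chr12:89352452-89352751, minus strand): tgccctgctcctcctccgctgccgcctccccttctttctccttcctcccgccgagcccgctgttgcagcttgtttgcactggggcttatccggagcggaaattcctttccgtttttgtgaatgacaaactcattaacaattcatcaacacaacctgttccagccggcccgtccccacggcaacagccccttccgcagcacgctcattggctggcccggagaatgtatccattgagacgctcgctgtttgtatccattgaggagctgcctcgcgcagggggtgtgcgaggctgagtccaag

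EGR1, whose induction by growth factors runs through serum response factor, had 2 CArG boxes, starting at positions -105 and -83 from the annotated start. A CArG box was present in 1.3% of the 34796 promoters of this length. DUSP1 had the full cyclic AMP response element at -125, which 1.84% of the promoters held. PHLDA1 had 1 ETS match, on the other strand at -89, and 17.2% of promoters held these letters. DUSP6 had none of the 3 in this window. The octamer ATGCAAAT, the motif of the POU2F family, was found in 1.76% of all promoters and in none of the promoters of the 8 members searched. Those of DUSP4 and DUSP5 were not searched as promoters of members. These matches describe the letters of the windows only.

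Of the 18 libraries 2 stood apart. L191A sgRosa replicate 1 had a median of 7.06 TPM over the genes tested and 37.6% of its TPM in ribosomal protein genes, and WT sgPOU2F3 replicate 1 had a median of 12.7 TPM and 32.4%. The other 16 libraries had medians from 18.6 to 26.4 TPM and ribosomal shares from 15.6% to 26.2%. Calls of the 10 genes in comparisons with the WT or L191A line are therefore also given for those 16 libraries. Median-ratio scaling, which sets the typical gene equal between libraries, moved the median difference of all genes from -0.13 to 0.01 for the guide in empty-vector cells. Its effect on the balance of higher and lower calls is given where it was large. POU2F3 itself was at 281 ± 33.1 TPM in empty-vector sgPOU2F3 libraries and at 729 ± 108 TPM in empty-vector sgRosa libraries (SD, n = 3 each), and TPM do not separate transcripts of the cDNA from those of the genome. It averaged 1154 ± 114 TPM in WT sgPOU2F3, 646 ± 25.7 TPM in L191A sgPOU2F3, 1792 ± 90.0 TPM in WT sgRosa and 675 ± 475 TPM in L191A sgRosa. Without L191A sgRosa replicate 1, at 142 TPM, the last group averaged 942 ± 157 TPM. The WT and L191A lines thus differed in POU2F3 level as well as in the mutation, and the part of that level in the results was not tested. By limma on log2(TPM + 1), the guide difference of POU2F3 in empty-vector cells was -1.37 (adjusted p = 0.0617 in 18 libraries and 1.96e-07 in 16). In L191A cells it was 0.37 in 18 libraries (adjusted p = 0.589) and -0.53 in 16 (adjusted p = 0.0154). Tuft markers were in place, with 8 of 10 averaging 1 TPM or more, against 1 of 6 neuroendocrine markers.

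The 10 genes were expressed at modest levels, and empty-vector sgRosa cells, which had the control guide and no cDNA, held most of them at their lowest. In the 16 libraries the mean was lowest in empty-vector sgRosa for 8 of the 10, the exceptions being DUSP1 and SPRY2. It was highest in empty-vector sgPOU2F3 for 4 (DUSP1, DUSP5, SPRY2 and SPRY4) and in WT sgRosa for another 4 (DUSP4, SPRED1, SPRED2 and EGR1). DUSP6 was highest in WT sgPOU2F3 and PHLDA1 in L191A sgPOU2F3. How often all genes have their lowest or highest mean in each group was not computed, so these counts cannot be set against such a share. Summed over the genes, the level was 137, 201 and 149 TPM in empty-vector sgPOU2F3, 150 to 185 TPM in WT sgRosa, and 55.4 to 76.7 TPM in empty-vector sgRosa. It was 127 to 144 TPM in L191A sgPOU2F3, 66.3 to 145 TPM in WT sgPOU2F3 and 23.8 to 100 TPM in L191A sgRosa. EGR1 and SPRED2 weigh most in these sums: in WT sgRosa they averaged 70.9 and 45.6 TPM, while DUSP1 had its lowest mean there.

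**Figure D1:**
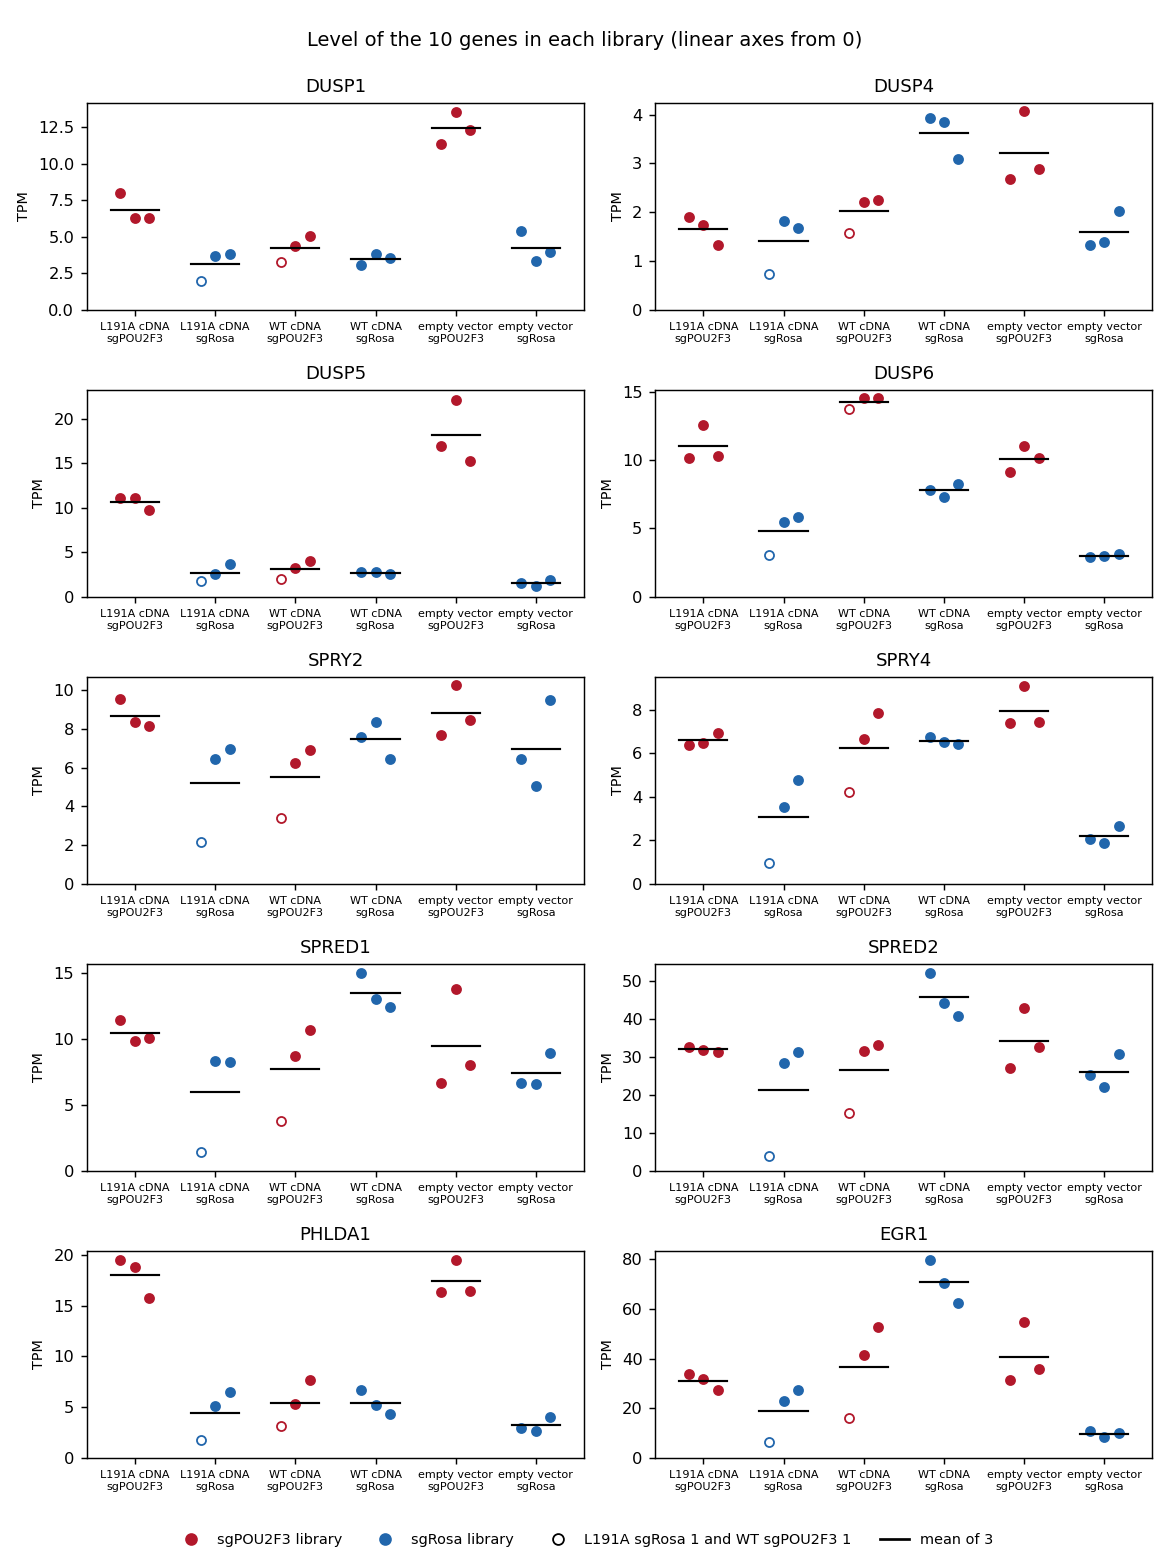
Level in TPM (vertical axes, linear from 0) of each of the 10 genes in the 18 libraries, by line and guide; points are libraries, lines are means of 3, and open points are the 2 libraries that stood apart. DUSP5 and PHLDA1 were high with sgPOU2F3 in the L191A and empty-vector lines, and EGR1 was highest in WT sgRosa, at 62.6 to 79.6 TPM.

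In empty-vector cells, sgPOU2F3 raised 7 of the 10 genes and lowered none. The test was limma on log2(TPM + 1), a scale that understates changes of low genes, at an adjusted p under 0.05; of all genes tested, 17.5% passed in this comparison and 7.94% were higher. The median difference of the 10 genes was 1.42 on the log2 scale, and that of all genes tested was -0.13. Because the list was chosen with earlier results of these data known, setting it against all genes is no test of the list. In bulk RNA, a change in the number of cells that express a gene and a change in RNA per cell cannot be told apart.

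DUSP5 had the largest difference of the 10. This phosphatase, which acts on ERK alone and holds it in the nucleus, was at 17.0, 22.2 and 15.2 TPM with sgPOU2F3, against 1.57, 1.16 and 1.87 TPM with sgRosa. All 3 sgPOU2F3 libraries lay far above all 3 sgRosa libraries. The means differed 11.8-fold, or 2.91 ± 0.22 (SE) in log2 (adjusted p = 1.30e-07). DUSP1, which also acts on the stress kinases JNK and p38, was at 11.3, 13.6 and 12.3 TPM with sgPOU2F3, against 5.42, 3.33 and 3.97 TPM with sgRosa. Its groups did not overlap, and it rose 2.93-fold (1.37 ± 0.21 in log2, adjusted p = 3.20e-04). DUSP4, the third nuclear phosphatase, rose least, to 2.68, 4.07 and 2.88 TPM with sgPOU2F3, against 1.32, 1.39 and 2.03 TPM with sgRosa. Its difference of 0.70 ± 0.20 (adjusted p = 0.0248) lost its call when any of 4 libraries was left out (adjusted p from 0.05 to 0.105): sgRosa replicate 1 or 2, or sgPOU2F3 replicate 2 or 3. With a pseudocount of 0.1 it was 0.0506. DUSP6, the cytoplasmic phosphatase of ERK and a common readout of its activity, was at 9.12, 11.04 and 10.2 TPM with sgPOU2F3, against 2.94, 2.95 and 3.11 TPM with sgRosa. The 3 sgRosa libraries were nearly equal and well below every sgPOU2F3 library (3.37-fold, 1.47 ± 0.19 in log2, adjusted p = 4.57e-05).

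Sprouty and SPRED genes, the inhibitors that act upstream of RAF, were divided. SPRY4 rose to 7.37, 9.09 and 7.42 TPM with sgPOU2F3, against 2.04, 1.88 and 2.63 TPM with sgRosa. The groups did not overlap (3.65-fold, 1.495 ± 0.302 in log2, adjusted p = 0.00275). SPRY2 was at 7.70, 10.3 and 8.46 TPM with sgPOU2F3 and at 6.47, 5.03 and 9.49 TPM with sgRosa, and the groups overlapped. Its difference was 0.32, with a 95% interval from -0.36 to 1.00 (adjusted p = 0.553). SPRED1 and SPRED2, which bring neurofibromin to RAS, were not called either. SPRED1 averaged 9.51 ± 3.81 TPM with sgPOU2F3 and 7.40 ± 1.33 TPM with sgRosa (SD, n = 3 each), and SPRED2, at the highest level among the upstream inhibitors, averaged 34.1 ± 7.99 TPM with sgPOU2F3 and 26.0 ± 4.39 TPM with sgRosa. In both genes sgPOU2F3 replicate 2 was the highest library. With the spread estimated from 16 libraries, SPRED2 passed (0.37, adjusted p = 0.0436), so that 8 members were higher where 19.1% of all genes were.

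PHLDA1 and EGR1 stand for the output of the pathway. PHLDA1, a pleckstrin-homology protein induced early by growth factors, was at 16.3, 19.5 and 16.4 TPM with sgPOU2F3, against 2.91, 2.68 and 4.05 TPM with sgRosa. The gap between the groups exceeded the spread within either one (5.41-fold, 2.14 ± 0.32 in log2, adjusted p = 2.54e-04). EGR1 was at 31.2, 54.7 and 35.9 TPM with sgPOU2F3, against 10.999, 8.39 and 9.92 TPM with sgRosa. Its sgPOU2F3 libraries varied among themselves but all lay above the sgRosa libraries (4.16-fold, 1.92 ± 0.45 in log2, adjusted p = 0.00744).

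**Figure D2:**
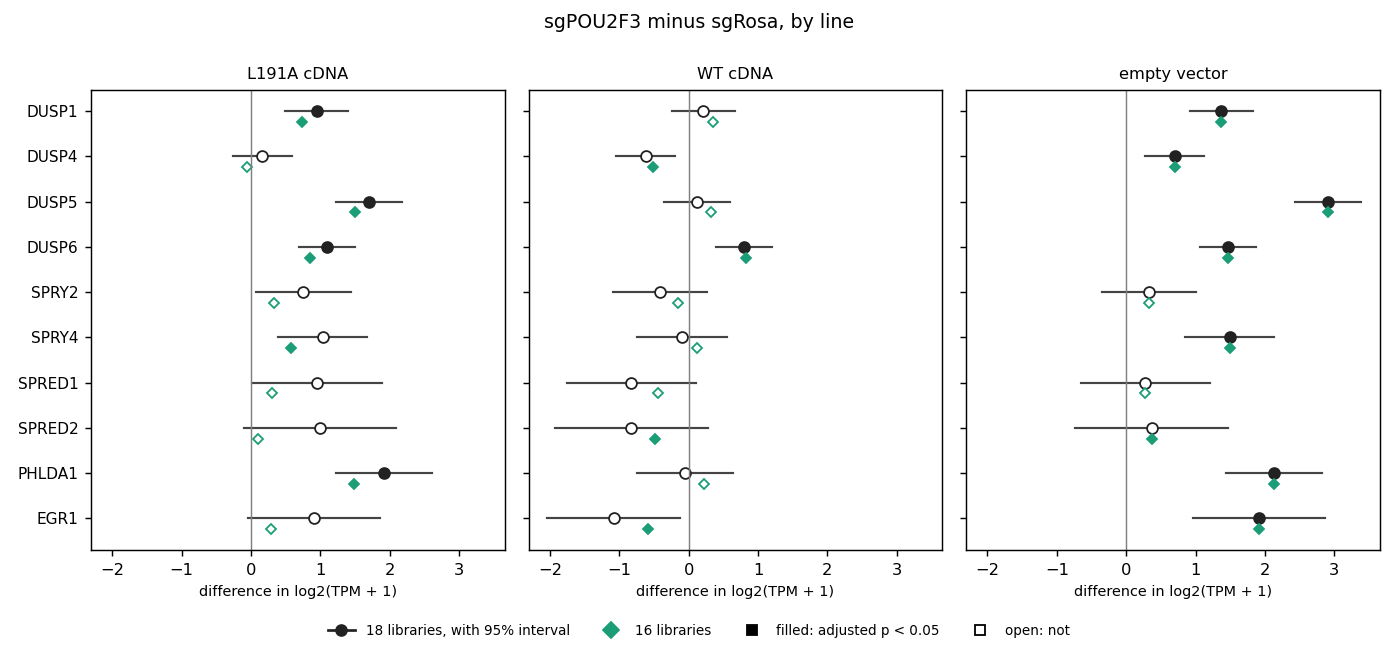
Difference in log2(TPM + 1) between sgPOU2F3 and sgRosa (horizontal axes) for the 10 genes in the L191A, WT and empty-vector lines; circles with 95% intervals use 18 libraries, diamonds use 16, and filled symbols passed an adjusted p of 0.05. Of the 10 genes, 4 passed in L191A cells, 1 in WT cells and 7 in empty-vector cells.

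In WT cells the picture was different: DUSP6 alone was called higher with sgPOU2F3, and none of the 10 was called lower. Of all genes tested 6.81% passed in this line and 1.56% were higher; 22.9% of the calls were higher as deposited and 59.2% after median-ratio scaling. DUSP6 was at 13.7, 14.6 and 14.5 TPM with sgPOU2F3, against 7.82, 7.28 and 8.27 TPM with sgRosa. The groups did not overlap, in the library that stood apart or the others (1.83-fold, 0.80 ± 0.19 in log2, adjusted p = 0.0294). The call was lost when any 1 of 5 libraries was left out (adjusted p from 0.0579 to 0.119), the exception being WT sgPOU2F3 replicate 3, and with a pseudocount of 0.1 (adjusted p = 0.0572), while the difference stayed between 0.76 and 0.84 with a library left out. In 16 libraries it was 0.82 (adjusted p = 6.19e-04).

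The genes with the largest rise in empty-vector cells were not called here. DUSP5 was at 2.01, 3.23 and 3.97 TPM in WT sgPOU2F3 and 2.75, 2.73 and 2.52 TPM in WT sgRosa. PHLDA1 was at 3.18, 5.28 and 7.63 TPM in WT sgPOU2F3 and 6.63, 5.22 and 4.28 TPM in WT sgRosa. Both overlapped between guides, DUSP5 only through WT sgPOU2F3 replicate 1, which stood apart. Their differences of 0.12 (95% interval from -0.35 to 0.60) and -0.05 (from -0.74 to 0.64) were not called. Over 18 alternative settings the DUSP5 difference ran from -0.04 to 0.62 and gained a call in 3. That of PHLDA1 ran from -0.30 to 0.66 and turned positive with a call in 2, quantile normalization and removal of the length trend. EGR1 was at 15.9, 41.5 and 52.6 TPM in WT sgPOU2F3, against 79.6, 70.5 and 62.6 TPM in WT sgRosa. Every sgPOU2F3 library was below every sgRosa library, with the one that stood apart lowest, but the difference of -1.08 ± 0.45 was not called (adjusted p = 0.0994). In 16 libraries, EGR1 (-0.58, adjusted p = 0.032), DUSP4 (-0.51, adjusted p = 0.0339) and SPRED2 (-0.48, adjusted p = 0.0341) fell and DUSP6 rose, where 36.1% of all genes passed. The DUSP4 difference was 0.02 in 18 libraries once the trend with transcript length was removed.

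In L191A cells sgPOU2F3 raised 4 of the 10 genes, namely PHLDA1, DUSP5, DUSP6 and DUSP1, and lowered none, where 5.99% of all genes passed and 5.43% were higher (90.5% of the calls as deposited, 65.5% after median-ratio scaling). PHLDA1 was at 19.5, 18.8 and 15.8 TPM with sgPOU2F3, against 1.74, 5.15 and 6.45 TPM with sgRosa (1.92 ± 0.32, adjusted p = 0.0013). DUSP5 was at 11.2, 11.1 and 9.73 TPM with sgPOU2F3, against 1.75, 2.60 and 3.67 TPM with sgRosa (1.70 ± 0.22, adjusted p = 1.11e-04). In both genes the first sgRosa library, which stood apart, was the lowest, and the other two were still well below every sgPOU2F3 library. DUSP6 averaged 11.03 ± 1.35 TPM with sgPOU2F3 and 4.78 ± 1.52 TPM with sgRosa (1.09 ± 0.19, adjusted p = 0.00158).

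DUSP1 averaged 6.85 ± 0.96 TPM in L191A sgPOU2F3 and 3.14 ± 1.00 TPM in L191A sgRosa (0.95 ± 0.21, adjusted p = 0.0123), a call lost without L191A sgPOU2F3 replicate 1 (adjusted p = 0.0783) and after quantile normalization (0.46, adjusted p = 0.0904). All 4 calls were lost when the spread was taken from these 6 libraries alone (adjusted p from 0.0575 to 0.356), which include L191A sgRosa replicate 1. In 16 libraries the differences of the 4 genes were smaller but called, at 1.48 for PHLDA1, 1.504 for DUSP5, 0.85 for DUSP6 and 0.73 for DUSP1. SPRY4 rose there as well (0.57, adjusted p = 0.0183), making 5 members higher where 7.36% of all genes were. EGR1 was at 33.6, 31.7 and 27.5 TPM with sgPOU2F3, against 6.24, 22.8 and 27.4 TPM with sgRosa. Without the first sgRosa library its groups almost met, and its difference was 0.91 in 18 libraries and 0.29 in 16 (adjusted p = 0.245 and 0.458).

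Comparing the lines under sgPOU2F3 asks how far a guide-resistant cDNA brought each gene towards its level in cells with POU2F3. The WT cDNA left 3 of the 10 genes lower than the empty vector did, DUSP5, DUSP1 and PHLDA1, where 20.6% of all genes passed and 13.9% were lower. Over all genes 32.4% of the calls were higher as deposited and 48.0% after median-ratio scaling. DUSP5 averaged 3.07 ± 0.99 TPM in WT sgPOU2F3 and 18.1 ± 3.61 TPM in empty-vector sgPOU2F3 (difference -2.25 ± 0.22, adjusted p = 3.35e-06). PHLDA1 averaged 5.36 ± 2.23 TPM in WT sgPOU2F3 and 17.4 ± 1.79 TPM in empty-vector sgPOU2F3 (-1.59 ± 0.33, adjusted p = 0.00265). DUSP1 averaged 4.22 ± 0.91 TPM in WT sgPOU2F3 and 12.4 ± 1.11 TPM in empty-vector sgPOU2F3 (-1.37 ± 0.21, adjusted p = 3.05e-04). In these 3 genes every WT library was below every empty-vector library, as in 32.0% of all genes, and they were the 3 members lower in 16 libraries, where 24.7% of all genes were. The other 7 were not called in 18 libraries. DUSP6 lay the other way, at 14.3 ± 0.46 TPM in WT and 10.1 ± 0.96 TPM in empty-vector cells (0.46, adjusted p = 0.0973), and passed in 16 libraries (0.49, adjusted p = 0.005).

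L191A cells with sgPOU2F3 kept DUSP5 and PHLDA1 above WT cells with the same guide. These 2 genes were the only ones called, both higher, where 13.5% of all genes passed and 7.77% were higher. DUSP5 was at 9.73 to 11.2 TPM in L191A and at 2.01 to 3.97 TPM in WT (1.55 ± 0.22, adjusted p = 1.89e-04). PHLDA1 was at 15.8 to 19.5 TPM in L191A and at 3.18 to 7.63 TPM in WT (1.64 ± 0.32, adjusted p = 0.00296). In 16 libraries DUSP1 was also higher in L191A (0.46, adjusted p = 0.0397), and DUSP6 (-0.38, adjusted p = 0.0269) and EGR1 (-0.58, adjusted p = 0.0257) were lower, where 37.4% of all genes passed. POU2F3 was at 621 to 672 TPM in L191A and at 1049 to 1276 TPM in WT under this guide, so mutation and POU2F3 level cannot be told apart here.

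Between L191A and the empty vector under sgPOU2F3, limma called none of the 10, where 3.79% of all genes passed. DUSP1, DUSP5, DUSP4 and SPRY4 were lower in L191A without overlap, as were 26.9% of all genes. SPRY4 was at 6.37 to 6.95 TPM in L191A and 7.37 to 9.09 TPM in empty-vector cells and was not called in 18 or 16 libraries. DUSP1 was at 6.30 to 7.96 TPM in L191A and 11.3 to 13.6 TPM in empty-vector cells, DUSP5 at 9.73 to 11.2 TPM in L191A and 15.2 to 22.2 TPM in empty-vector cells, and DUSP4 at 1.32 to 1.89 TPM in L191A and 2.68 to 4.07 TPM in empty-vector cells. Each passed in the fit of 16 libraries, although the 2 libraries left out belong to other groups (adjusted p = 0.00139 for DUSP1, 0.00409 for DUSP5 and 0.00587 for DUSP4), where 14.6% of all genes were lower. PHLDA1 averaged 18.004 ± 1.95 TPM in L191A and 17.4 ± 1.79 TPM in empty-vector cells, a difference of 0.05 with a 95% interval from -0.65 to 0.74.

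With the control guide, where the POU2F3 of the genome was left in place, the WT cDNA itself went with higher levels of part of the list. EGR1, DUSP6, SPRY4 and DUSP4 were higher in WT sgRosa than in empty-vector sgRosa and none was lower, where 7.20% of all genes passed and 4.57% were higher (63.4% of the calls as deposited, 47.4% after quantile normalization). EGR1 was at 79.6, 70.5 and 62.6 TPM in WT sgRosa, against 10.999, 8.39 and 9.92 TPM in empty-vector sgRosa. The lowest WT library was above the highest empty-vector library by a wide margin (7.25-fold, 2.74 ± 0.45 in log2, adjusted p = 0.0011). DUSP6 was at 7.28 to 8.27 TPM in WT and 2.94 to 3.11 TPM in empty-vector cells (1.14 ± 0.19, adjusted p = 0.0013).

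SPRY4 was at 6.42 to 6.74 TPM in WT sgRosa and 1.88 to 2.63 TPM in empty-vector sgRosa (1.25 ± 0.30, adjusted p = 0.0181). DUSP4 was at 3.08 to 3.94 TPM in WT sgRosa and 1.32 to 2.03 TPM in empty-vector sgRosa (0.85 ± 0.20, adjusted p = 0.017). Both were without overlap, but their calls were lost on leaving out a single library: any of 5 for SPRY4 (adjusted p from 0.0585 to 0.0875; all but empty-vector replicate 3) and any of 4 for DUSP4 (from 0.0704 to 0.0869; replicates 1 and 2 of either line). That left 2 members called, EGR1 and DUSP6. With the spread from 16 libraries 8 members were higher, the other 4 being SPRED2, SPRED1, PHLDA1 and DUSP5, where 20.9% of all genes were. DUSP5, which the guide moved most, averaged 2.67 ± 0.12 TPM in WT sgRosa and 1.53 ± 0.36 TPM in empty-vector sgRosa. DUSP1 averaged 3.47 ± 0.39 TPM in WT sgRosa and 4.24 ± 1.07 TPM in empty-vector sgRosa and was not called in either fit.

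SPRED1 and SPRED2 had their highest levels in WT sgRosa. SPRED1 was at 15.02, 13.0 and 12.4 TPM there, against 6.70, 6.56 and 8.93 TPM in empty-vector sgRosa, without overlap (0.80, adjusted p = 0.37 in 18 libraries and 0.00464 in 16). SPRED2 was at 51.9, 44.1 and 40.8 TPM in WT sgRosa, against 25.3, 22.0 and 30.7 TPM in empty-vector sgRosa (0.79, adjusted p = 0.478 and 6.14e-04). Across the fits the difference is the same and the estimated spread is not: SPRED2 was at 3.76 TPM in L191A sgRosa replicate 1, against 28.4 and 31.2 TPM in the other L191A sgRosa libraries.

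L191A cells with sgRosa include the library that stood apart. Against WT sgRosa, 6 of the 10 genes were lower (DUSP4, DUSP6, SPRY4, SPRED1, SPRED2 and EGR1), where 55.8% of all genes passed and 48.0% were lower, with a median over all genes of -0.67. Of the calls over all genes, 13.9% were higher as deposited and 56.4% after median-ratio scaling, which set the median at 0.02. EGR1 was at 6.24, 22.8 and 27.4 TPM in L191A sgRosa, against 62.6 to 79.6 TPM in WT sgRosa (-2.07 ± 0.45, adjusted p = 0.00221; -1.46 in 16 libraries, adjusted p = 1.76e-05). SPRED1 and SPRED2 lost their calls without any of L191A sgRosa replicate 1, WT sgRosa replicate 1 or WT sgRosa replicate 2 (adjusted p from 0.051 to 0.112 for SPRED1 and from 0.0539 to 0.0790 for SPRED2). SPRED1, SPRY4 and DUSP4 lost theirs after quantile normalization (adjusted p = 0.082, 0.406 and 0.511). SPRED1 and SPRED2 passed in the 16-library fit (0.0189 and 0.00589), in which the 6 genes were lower where 44.3% of all genes were. For DUSP6 and DUSP4 the sign depended on the scaling: DUSP6 was at -0.64 as deposited, 0.047 after median-ratio scaling and 0.317 after quantile normalization, and DUSP4 at -0.97 as deposited and 0.003 after removal of the trend with transcript length. With the 6 compared libraries alone, 1 of the 6 members, EGR1, passed. Against empty-vector sgRosa, limma called none of the 10 in 18 libraries, where 36.0% of all genes passed (13.7% of the calls higher as deposited, 54.8% after median-ratio scaling). In 16 libraries 5 were higher in L191A: EGR1 (1.28), DUSP6 (0.73), DUSP5 (0.70), PHLDA1 (0.70) and SPRY4 (0.69), where 9.29% of all genes were.

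**Figure D3:**
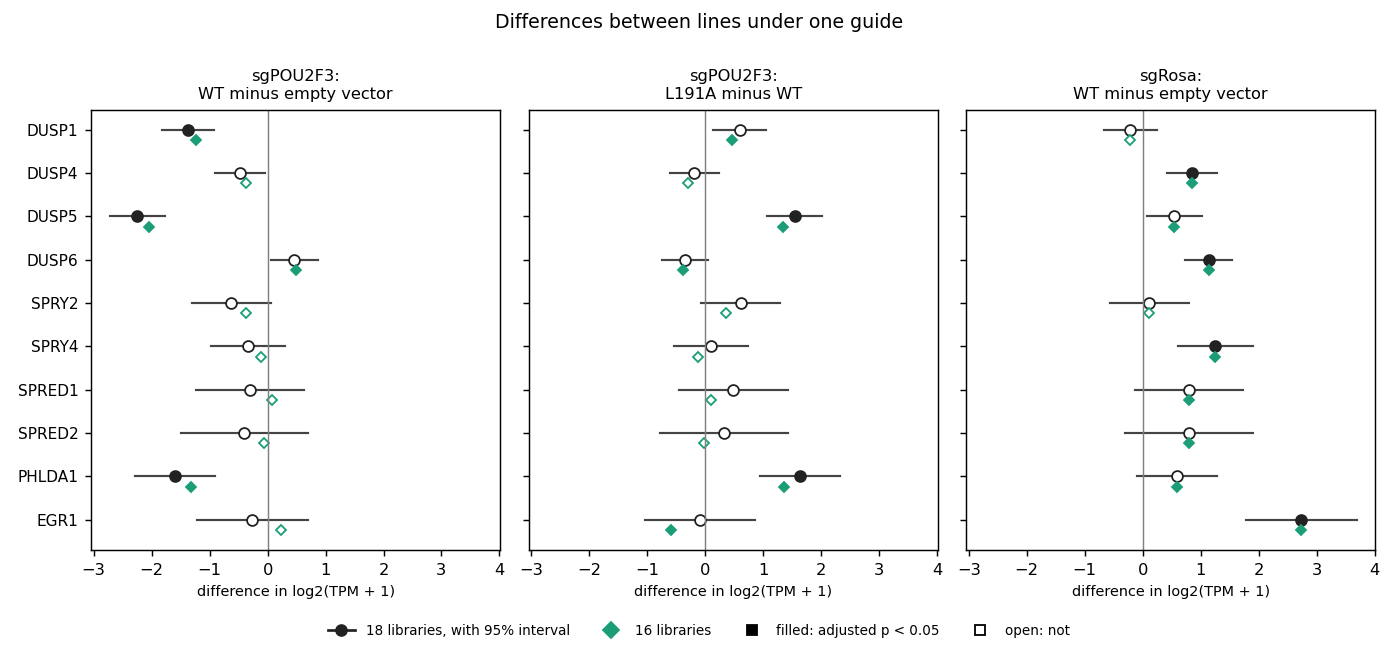
Differences between lines under one guide, in log2(TPM + 1) on the horizontal axes: WT minus empty vector and L191A minus WT under sgPOU2F3, and WT minus empty vector under sgRosa. Symbols are as in the plot of guide differences; DUSP5 and PHLDA1 lie left of 0 in the first panel and right of 0 in the second, and EGR1 is farthest right in the third, at 2.74.

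The size of the guide difference itself was compared between lines. It was smaller in WT than in empty-vector cells for 6 of the 10 genes and larger for none, where 6.99% of all genes passed and 5.27% were lower (24.5% of the calls higher as deposited, 47.6% after median-ratio scaling); the median of the 10 was -1.26 and that of all genes was -0.26. The term was -3.00 ± 0.63 for EGR1, whose guide difference was -1.08 in WT and 1.92 in empty-vector cells (adjusted p = 0.00853). For DUSP5 it was -2.79 ± 0.32 (0.12 in WT and 2.91 in empty-vector cells, adjusted p = 3.31e-05), and for PHLDA1 -2.19 ± 0.46 (-0.05 and 2.14, adjusted p = 0.00842). DUSP4 followed with -1.32 (adjusted p = 0.00965).

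SPRY4 (-1.59, adjusted p = 0.0353) and DUSP1 (-1.16, adjusted p = 0.0301) passed with less margin. SPRY4 lost its call when any of 10 of the 12 libraries compared was left out (adjusted p up to 0.0958), the exceptions being empty-vector sgRosa replicate 3 and WT sgPOU2F3 replicate 3. DUSP1 lost its call in 9 of the 12 (adjusted p up to 0.0953), the exceptions being empty-vector replicate 1 of either guide and WT sgPOU2F3 replicate 3. Both also missed the threshold with a pseudocount of 0.1 (adjusted p = 0.0657 for SPRY4 and 0.0606 for DUSP1). All 6 passed in 16 libraries, with DUSP6 and SPRED2 added, where 17.7% of all genes were lower. DUSP6 had a guide difference of 0.80 in WT and 1.47 in empty-vector cells, and the term of -0.67 was not called in 18 libraries (adjusted p = 0.152; 0.0101 in 16).

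In L191A cells the guide difference for DUSP5 was smaller than in empty-vector cells (-1.215 ± 0.316, with 1.70 in L191A and 2.91 in empty-vector cells, adjusted p = 0.0351), and DUSP5 was the only member called, where 6.08% of all genes passed and 1.80% were lower (70.4% of the calls higher as deposited, 51.5% after median-ratio scaling). This call was lost on leaving out any of 9 of the 12 libraries (adjusted p up to 0.0873), and held without empty-vector sgPOU2F3 replicate 3, L191A sgRosa replicate 1 or L191A sgRosa replicate 2. It was also lost with a pseudocount of 0.1 (adjusted p = 0.0563) and with the 12 compared libraries alone (0.0808). In 16 libraries 6 members had a smaller guide difference in L191A (EGR1, DUSP5, SPRY4, DUSP4, DUSP1 and DUSP6), where 7.54% of all genes did. Against WT cells the guide difference was larger in L191A for PHLDA1 (1.97 ± 0.46, adjusted p = 0.0183) and DUSP5 (1.575 ± 0.316, adjusted p = 0.00809), where 11.7% of all genes passed, 10.7% were higher and the median over all genes was 0.79. Of the calls over all genes 91.7% were higher as deposited and 47.9% after median-ratio scaling. After quantile normalization the terms were 0.91 for PHLDA1 (adjusted p = 0.00868) and 0.57 for DUSP5 (adjusted p = 0.0661). In 16 libraries these terms were 1.26 and 1.18, and both passed, with EGR1 (0.87, adjusted p = 0.045) added, where 11.4% of all genes were higher. The PHLDA1 call was lost without WT sgRosa replicate 1, WT sgPOU2F3 replicate 1 or L191A sgPOU2F3 replicate 1 (adjusted p from 0.052 to 0.0613) or with the 12 compared libraries alone (0.0797). Without L191A sgRosa replicate 2 or without replicate 3, 9 of the 10 genes passed in this comparison. Both fits give more weight to L191A sgRosa replicate 1, which stood apart. The share of all genes that passed in them is not given, so this count cannot be set against it.

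**Figure D4:**
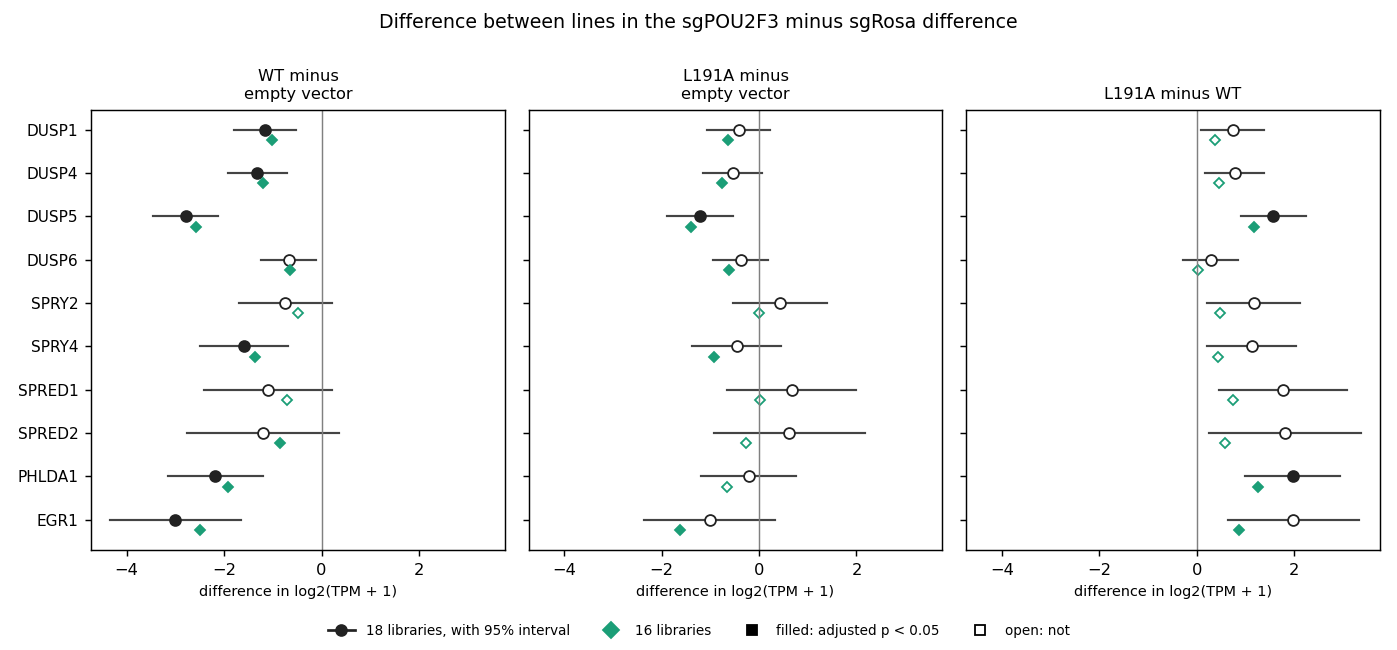
Difference between lines in the sgPOU2F3 minus sgRosa difference, in log2(TPM + 1) on the horizontal axes, with 95% intervals. For WT minus empty vector 6 genes passed, with EGR1 at -3.00 and DUSP5 at -2.79; for L191A minus empty vector 1 passed, and for L191A minus WT 2 passed.

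The rest of the pathway was read from companion lists. For the counts in empty-vector cells that follow, 17.5% of all genes passed in 18 libraries, 7.94% higher and 9.51% lower. After median-ratio scaling 26.5% of all genes passed, with 1693 higher and 1765 lower. In 16 libraries 6760 of the 13065 genes passed, and 19.1% were higher. Of 14 receptor ligands, 10 were tested, and sgPOU2F3 in empty-vector cells raised 2 and lowered 1. HBEGF, a ligand of the EGF receptor, was at 56.5, 58.5 and 54.7 TPM with sgPOU2F3, against 3.26, 2.60 and 3.10 TPM with sgRosa, a rise of 18.9-fold (adjusted p = 1.07e-09). The replicates were close and the groups far apart. AREG, another EGF receptor ligand, was at 4.74 to 5.28 TPM with sgPOU2F3 and 0.31 to 0.78 TPM with sgRosa (adjusted p = 8.42e-06). EGFR, the gene of the EGF receptor itself, was listed at 0 TPM in all libraries but L191A sgPOU2F3 replicate 3, at 0.07 TPM. HBEGF and AREG also rose in L191A cells, HBEGF to 31.4 to 33.8 TPM, against 2.78 to 4.597 TPM with sgRosa. In WT cells HBEGF was at 4.65 to 7.87 TPM with sgPOU2F3 and 4.65 to 5.71 TPM with sgRosa and was not called. FGF7 fell in empty-vector cells (-0.78, adjusted p = 0.0104), a call lost without sgRosa replicate 3 (adjusted p = 0.0615) or sgPOU2F3 replicate 3 (0.05), and TGFA was not called (-0.66, adjusted p = 0.088).

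Of 11 receptors tested, none was called higher and 4 were lower in empty-vector cells with sgPOU2F3, where 9.51% of all genes were lower; the median of the 11 was 0.20. After median-ratio scaling 3 were higher and 4 lower, and in 16 libraries 4 were higher and 5 lower. KIT, the stem cell factor receptor, was at 18.03, 25.0 and 23.1 TPM with sgPOU2F3, against 91.1, 89.5 and 108 TPM with sgRosa (-2.09 ± 0.34, adjusted p = 5.03e-04). Its groups were far apart in this line, and in WT cells, where it was at 18.01 to 19.8 TPM with sgPOU2F3 and 19.0 to 23.3 TPM with sgRosa, they overlapped. PDGFRA fell too (-1.53, adjusted p = 6.60e-06), as did ERBB4 (-0.93, adjusted p = 0.0296) and ERBB3 (-1.11, adjusted p = 0.0476), whose calls were lost on leaving out any 1 of the 6 libraries (adjusted p from 0.0556 to 0.13 for ERBB4 and from 0.0572 to 0.19 for ERBB3).

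Of 20 adaptors and kinases of the cascade tested, 1 rose and 1 fell in empty-vector cells, with a median of -0.04; after median-ratio scaling 5 were higher and 1 lower, and in 16 libraries 4 were higher and 5 lower. HRAS, one of the RAS genes, was at 103, 110 and 102 TPM with sgPOU2F3, against 67.7, 58.2 and 62.8 TPM with sgRosa (0.73, adjusted p = 0.0117), and was not called in WT or L191A cells. Its call was lost after median-ratio scaling (0.88, adjusted p = 0.0559). The ERK-activated kinase RPS6KA2 fell (-1.56, adjusted p = 0.0155; 0.0822 without sgRosa replicate 3 and 0.0803 without sgPOU2F3 replicate 1). MAP2K1, which encodes the kinase MEK1, and the adaptor GAB1 were not called (0.51 and -0.59, adjusted p = 0.0745 and 0.236).

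Among 17 tested output genes, 7 rose and 1 fell in empty-vector cells, with a median of 0.84; 13 were higher and 1 lower after median-ratio scaling and in 16 libraries. FOSL1, an AP-1 subunit stabilised by ERK, was at 105, 107 and 94.2 TPM with sgPOU2F3, against 1.13, 0.80 and 0.24 TPM with sgRosa. No other named gene of the pathway differed as much (5.94 ± 0.32, adjusted p = 2.36e-09). The ephrin receptor EPHA2 was at 53.5, 72.1 and 50.5 TPM with sgPOU2F3, against 3.03, 2.55 and 2.74 TPM with sgRosa (adjusted p = 1.65e-07), and IER3 was at 108 to 123 TPM with sgPOU2F3 and 24.9 to 26.7 TPM with sgRosa (adjusted p = 2.78e-08). FOSL1 and EPHA2 also rose in L191A cells (2.36 and 2.53) and were not called in WT cells. JUN (1.89), JUNB (1.88) and FOS (1.22), the other AP-1 subunits called, rose in empty-vector cells, and the ephrin receptor EPHA4 fell (-1.42, adjusted p = 0.0248); these 4 are named after their values were seen.

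ETV4 and ETV5 are related ETS factors. ETV4 was at 21.7 to 29.8 TPM in empty-vector sgPOU2F3 and 5.57 to 6.87 TPM in empty-vector sgRosa (1.95, adjusted p = 5.46e-06), and it was higher still in WT sgRosa, without overlap, at 34.9 to 46.4 TPM (2.53 against empty-vector sgRosa, adjusted p = 9.36e-07). ETV5 was higher in WT sgRosa than in empty-vector sgRosa (1.76, adjusted p = 4.92e-04) and was at 6.95 to 8.96 TPM in empty-vector sgPOU2F3 and 8.16 to 11.1 TPM in empty-vector sgRosa (-0.16, adjusted p = 0.735). CCND1, a cyclin of the G1 phase, was at 450, 463 and 603 TPM in empty-vector sgPOU2F3, against 207, 239 and 283 TPM in empty-vector sgRosa. Its groups did not overlap, but it passed in 16 libraries only (1.05, adjusted p = 0.0632 in 18 and 2.27e-05 in 16).

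Of 19 tested other inhibitors, 5 rose and none fell in empty-vector cells, with a median of 0.37; 9 were higher after median-ratio scaling, and 10 higher and 3 lower in 16 libraries. ERRFI1, an inhibitor of the EGF receptor, was at 16.6, 17.7 and 16.9 TPM with sgPOU2F3, against 5.73, 5.22 and 8.25 TPM with sgRosa (1.31, adjusted p = 0.00318). DUSP14 was at 63.9 to 68.0 TPM with sgPOU2F3 and 30.8 to 35.7 TPM with sgRosa (1.01, adjusted p = 0.00109). Both rose in L191A cells and were not called in WT cells. As for the members, the L191A calls of ERRFI1, DUSP14 and FOSL1 were lost when the spread was taken from the 6 L191A libraries alone (adjusted p = 0.137, 0.401 and 0.0767), and that of DUSP14 also after median-ratio scaling (0.38, adjusted p = 0.0893; 0.84 as deposited). DUSP10 (0.72, adjusted p = 0.0418) and DUSP2 (0.62, adjusted p = 0.0184) passed narrowly: DUSP10 lost its call without any 1 of the 6 libraries (adjusted p from 0.0697 to 0.142), and DUSP2 without sgRosa replicate 3 or any 1 of the sgPOU2F3 libraries (from 0.05 to 0.095). The fifth was LRIG1 (0.57, adjusted p = 0.045), also named after its value was seen. In L191A cells these lists had 4 ligands, 3 receptors, 1 cascade gene, 3 output genes and 5 inhibitors higher, where 5.43% of all genes were, and none lower. In WT cells none was higher, where 1.56% of all genes were, and 3 ligands, 2 receptors and 2 cascade genes were lower, where 5.25% of all genes were. After median-ratio scaling the L191A counts were 4, 3, 3, 4 and 7 higher with 1 output gene lower, where 9.71% of all genes passed. In WT cells they were then 1 ligand, 1 receptor, 5 output genes and 2 inhibitors higher, and 3 ligands, 3 receptors and 2 cascade genes lower, where 13.0% of all genes passed. In 16 libraries WT cells had 4 output genes and 1 inhibitor higher, and 3 ligands, 5 receptors, 12 cascade genes, 4 output genes and 5 inhibitors lower, where 36.1% of all genes passed. The WT calls of PDGFRA, ERBB4 and RPS6KA2 were lost without WT sgPOU2F3 replicate 1 (adjusted p = 0.19, 0.241 and 0.285), without any 1 of the WT sgRosa libraries (from 0.0804 to 0.184) and with the 6 WT libraries alone (from 0.0714 to 0.0731); ERBB4 and RPS6KA2 lost theirs without WT sgPOU2F3 replicate 2 as well (0.0603 and 0.0616), and PDGFRA after median-ratio scaling (0.116). HSP90AA1 and BAG3 were the 2 of 10 listed heat-stress genes analysed here, and HSP90AA1 rose in empty-vector cells (0.48, adjusted p = 0.00715), a call lost after median-ratio scaling (0.63, adjusted p = 0.0947).

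**Figure D5:**
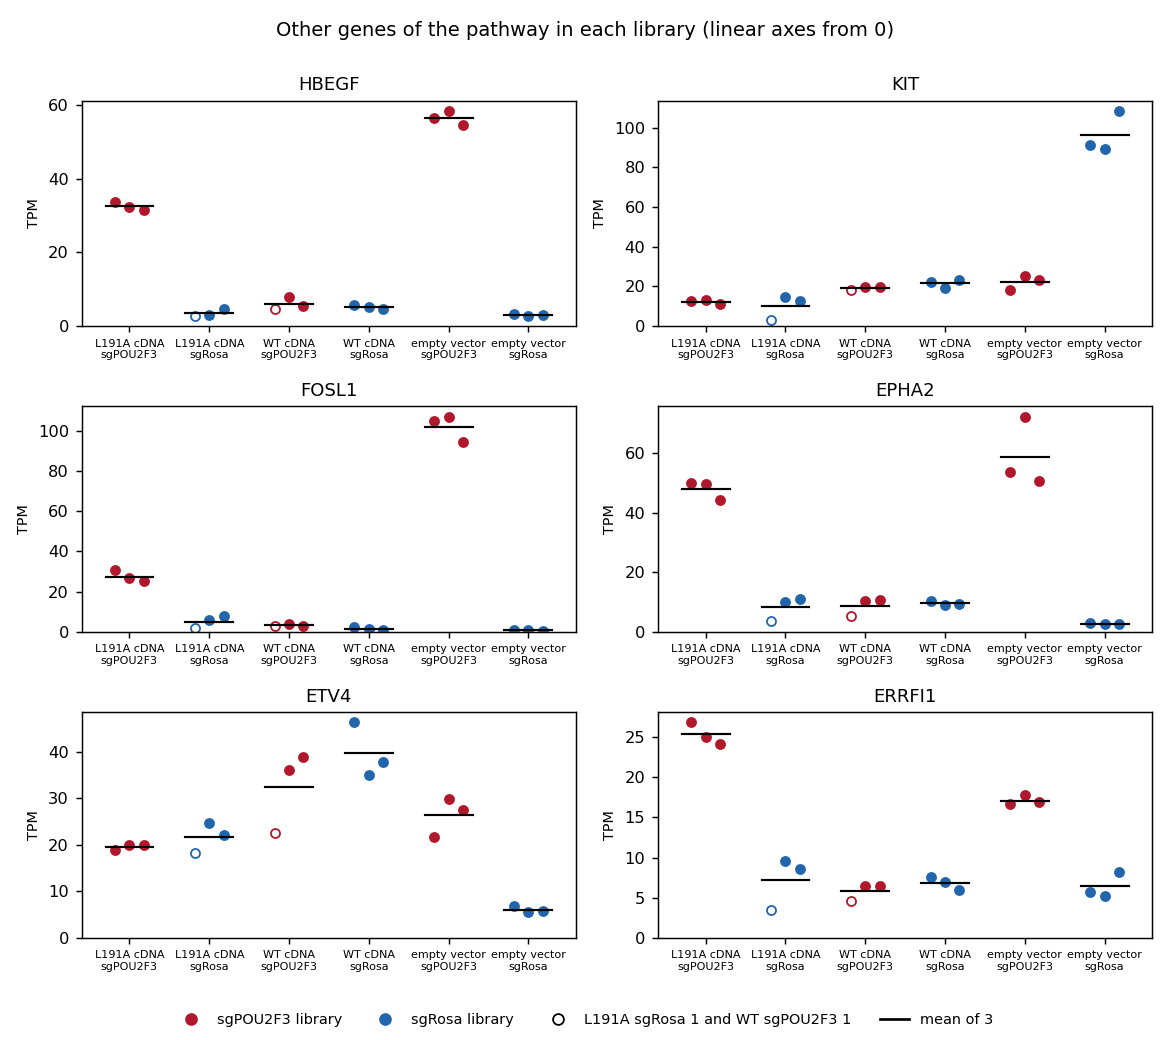
Level in TPM (vertical axes, linear from 0) of HBEGF, KIT, FOSL1, EPHA2, ETV4 and ERRFI1 in the 18 libraries, drawn as in the plot of the 10 genes. HBEGF, FOSL1, EPHA2 and ERRFI1 were high with sgPOU2F3 in the L191A and empty-vector lines; ETV4 was lowest, and KIT highest, in empty-vector sgRosa.

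The genes most like each member were taken by Pearson correlation of log2(TPM + 1) over the 16 libraries, among 10297 genes averaging 5 TPM or more. These libraries share 6 group means, so the values describe the group pattern. DUSP5 was closest to ITGA3 (r = 0.991), an integrin subunit, and to BCAR3 (0.990). PHLDA1 was closest to CAV1 (0.992), caveolin, and AJUBA (0.983), and DUSP1 to ACOT9 (0.960) and TGFBI (0.947). EGR1 was closest to ETV4 (0.956) and to NAB2 (0.950), which encodes a corepressor of EGR proteins. DUSP6 had its best match inside the list, SPRY4 (0.921), with KIAA0040 next (0.893), while SPRY4 itself was closer to MAP3K6 (0.949) and ETS1 (0.930). DUSP4 went with TFAP2A (0.954) and FGFR1 (0.951), SPRED1 with LRCH1 (0.942) and SPRED2 (0.931), SPRED2 with B4GALNT1 (0.952) and PCGF2 (0.944), and SPRY2 with PTGFRN (0.865) and PAWR (0.851). Within the list the closest pairs were DUSP5 with PHLDA1 (0.967), SPRED1 with SPRED2 (0.931), DUSP6 with SPRY4 (0.921) and DUSP1 with DUSP5 (0.909).

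Marker lists of other cell types were read beside these genes. The 6 fibroblast genes, all averaging 1 TPM or more over the 18 libraries, summed to 20.6 to 26.3 TPM in empty-vector sgPOU2F3, 19.0 to 23.6 TPM in WT sgRosa and 8.62 to 10.6 TPM in empty-vector sgRosa. The sum was 14.0003 to 14.6 TPM in L191A sgPOU2F3, 9.41 to 15.2 TPM in L191A sgRosa and 7.91 to 10.9 TPM in WT sgPOU2F3. The sum was thus high in the 2 groups with the highest mean sums of the members, and as low in WT sgPOU2F3 as in empty-vector sgRosa, although the members summed to 124 and 145 TPM in WT sgPOU2F3 replicates 2 and 3. PDGFRA, a gene of this list, went against the sum, with means of 0.71 TPM in empty-vector sgPOU2F3 and 3.91 TPM in empty-vector sgRosa. The part of the fibroblast sum in the results was not tested. The 10 tuft markers summed to 727 to 960 TPM in empty-vector sgPOU2F3 and 2005 to 2557 TPM in empty-vector sgRosa. Endothelial markers summed to at most 0.80 TPM in any library. Of the 6 blood markers, 4 averaged 1 TPM or more, while CD3E, a T-cell marker, was listed at 0 in all libraries. CD14 reached 10.8 TPM and PTPRC 6.80 TPM in their highest libraries. The blood list summed to 15.1 to 21.3 TPM in WT sgRosa and 10.46 to 12.6 TPM in empty-vector sgRosa. The part of the blood sum in the results was not tested.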

How the data were processed

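Per the submitters' processing notes, the deposited TPM came from kallisto, with hg38 as the genome build; the kallisto version was not given in the sources used here. Per the labels' protocols, poly(A) RNA went into TruSeq libraries. The 134 of 19875 entries that named no gene (107 description fragments and 27 spreadsheet dates, 1.64% to 2.43% of the TPM) were left out. Values were taken as log2(TPM + 1), and the 13065 genes averaging 1 TPM or more were tested with limma 3.58.1 (R 4.3.3): 1 coefficient per group over all 18 libraries, an intensity trend of the variance, 12 two-sided contrasts and Benjamini-Hochberg adjustment over all genes within each. All groups share 1 estimate of the spread. Depth is lost in TPM, so no counting error could be given. The fit was tested on simulated data.

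Named were the 10 genes, up to 4 genes with the smallest p in empty-vector cells per companion list, ETV4, ETV5, FOSL1 and CCND1, and the 2 most correlated genes per member. The members and lists were chosen with earlier results of these data known. JUN, JUNB, FOS, EPHA4 and LRIG1 were named outside this rule. Alternatives were other filters, pseudocounts, scalings and variance priors, the replicate block, fits of the compared groups alone, 16 libraries, removal of the trend of each library with transcript length, and each library left out.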

Additional observations from a re-analysis of the deposited data

Results flagged for a closer look

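The guide difference (sgPOU2F3 minus sgRosa) of several members differed between lines by the test of that difference in limma. WT minus empty-vector cells gave -3.00 for EGR1, -2.79 for DUSP5, -2.19 for PHLDA1, -1.59 for SPRY4, -1.32 for DUSP4 and -1.16 for DUSP1 in log2(TPM + 1). The same held for DUSP5 in L191A minus empty-vector cells as well, at -1.215. For L191A minus WT cells the terms were 1.97 for PHLDA1 and 1.575 for DUSP5. With 3 libraries in each group, no group was large enough for a test of single outlying libraries.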

How the results depend on the processing

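Counts of the 10 genes called moved by over 1.5 times in these cases, with the count in the 18-library fit as reported first. Square brackets give the number of all genes called in the same fit. It is out of 13065 genes tested, or 12771 with the length trend removed, except without a filter. For the guide in WT cells (1 [890]) it was 0 with a pseudocount of 0.1 [224], 2 with 5 [2476] and 3 with median-ratio scaling [1694]. It was 6 with quantile normalization [3344], and 4 in 16 libraries [4721] or with the length trend removed [2435]. In L191A cells (4 [783]) it was 0 with the compared groups alone [144]. For WT minus empty vector under sgPOU2F3 (3 [2687]) it was 6 with median-ratio scaling [3984] or quantile normalization [4764] and 5 with the length trend removed [4494]. L191A minus empty vector under sgPOU2F3 (0 [495]) gave 2 with a pseudocount of 5 [571] and 1 without the intensity trend [516]. It gave 3 with median-ratio scaling [1081], quantile normalization [1328], 16 libraries [2991], the length trend removed [1260] or the compared groups alone [2378]. L191A minus WT (2 [1762]) gave 5 with median-ratio scaling [2911], quantile normalization [3570], 16 libraries [4885] or the length trend removed [3348]. Under sgRosa, WT minus empty vector (4 [941]) gave 8 in 16 libraries [4486] or with the compared groups alone [3678]. L191A minus WT (6 [7288]) gave 1 with the compared groups alone [1681]. L191A minus empty vector (0 [4700]) gave 1 without a filter [4438], with a pseudocount of 0.1 [4394], with the replicate block [5240] or without the intensity trend [4668]. It gave 5 with median-ratio scaling [4105] or 16 libraries [5125], and 6 with quantile normalization [3980] or the length trend removed [4150]. For the guide difference, L191A minus empty vector (1 [795]) gave 0 with a pseudocount of 0.1 [576] or the compared groups alone [319]. It gave 6 with median-ratio scaling [1566] or 16 libraries [3039], and 7 with quantile normalization [1976] or the length trend removed [1779]. L191A minus WT (2 [1531]) gave 6 with a pseudocount of 5 [3950], 7 with the replicate block [4029] and 1 with the compared groups alone [300]. The cause was not tested.

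Leaving out 1 library gave 6 to 7 calls for the guide in empty-vector cells, 0 to 3 in WT and 3 to 5 in L191A cells, always 3, 0 and 2 for the 3 pairs of lines under sgPOU2F3, 2 to 4, 0 to 4 and 4 to 6 under sgRosa (WT and L191A minus empty vector, L191A minus WT), and 4 to 6, 0 to 4 and 1 to 9 for the guide differences (same order). Shares of all genes are not given for these fits. Single genes changed sign, with a call in one of the settings, mostly where L191A sgRosa replicate 1 or WT sgPOU2F3 replicate 1 entered. For L191A minus WT under sgRosa these were DUSP1 (0.47 with median-ratio scaling, 0.80 with quantile normalization, 0.57 with the length trend removed), DUSP5 (0.56, 0.89 and 0.61), DUSP6 (0.047 and 0.317 with the scalings), PHLDA1 (0.60 with quantile normalization and 0.72 with the length trend removed), SPRY2 (0.37 with quantile normalization) and DUSP4 (0.003 with the length trend removed). For L191A minus empty vector under sgRosa, DUSP4 was at 0.42 with quantile normalization and 0.67 with the length trend removed. For the guide in WT cells, quantile normalization gave 0.48 for SPRY4, 0.51 for PHLDA1, 0.39 for EPHA2 and 0.37 for ERRFI1, and removal of the length trend 0.66 for PHLDA1. Quantile normalization also gave -0.82 for the DUSP6 guide difference of L191A minus WT cells. In all, 4757 of 5317 recomputed gene values kept direction and call, 201 lost and 339 gained a call, and 20 changed sign.

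In no pair of groups did every same-numbered pair of libraries deviate together (correlation over 0.1), so replicate numbers were not taken as pairs. Single correlations ran from -0.58 to 0.59. The highest, 0.56 and 0.59, were replicates 1 and 2 of WT and empty-vector cells under sgPOU2F3, where replicate 3 was at -0.40. With 3 libraries in a group this rule cannot show that pairing was absent. Counts over all genes, single libraries left out aside, had these ranges over the alternatives (as reported in brackets): 1589 to 6760 (2280) for the guide in empty-vector cells, 186 to 4721 (890) in WT cells, 144 to 1483 (783) in L191A cells, 2180 to 5699 (2687) for WT minus empty vector under sgPOU2F3, 269 to 2991 (495) for L191A minus empty vector, 1284 to 4885 (1762) for L191A minus WT, 551 to 4486 (941) for WT minus empty vector under sgRosa, 184 to 5240 (4700) for L191A minus empty vector, 1681 to 8023 (7288) for L191A minus WT, 589 to 3495 (913) for the guide difference of WT minus empty vector, 319 to 3039 (795) of L191A minus empty vector, 300 to 4029 (1531) of L191A minus WT. TPM carry no depth, so the precision of low genes such as DUSP4 rests on the spread of 3 libraries.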
